A study of Mus musculus with 8 samples.

Results

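Expression of the core oxygen-sensing genes was examined in *iMLL-AF9* cells treated with IOX5 or DMSO. These are the HIF subunit genes *Hif1a*, *Epas1* and *Arnt*, the prolyl hydroxylase (PHD) genes *Egln2*, *Egln1* and *Egln3* (which encode PHD1, PHD2 and PHD3), *Hif1an* (which encodes FIH) and *Vhl*. They were picked by symbol from the GENCODE M21 annotation. Each symbol had 1 Ensembl gene, so that they are 8 of the 54838 genes counted, and all 8 were among the 12405 genes that passed the filter on low counts.

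The study asked how PHD inhibition alters gene expression in acute myeloid leukemia (AML) cells. RNA-seq was performed on 8 samples, of which 4 were treated with DMSO, the solvent used as vehicle control, and 4 with IOX5, a PHD inhibitor. In all 8, the cells carry a doxycycline-inducible allele of the *MLL-AF9* fusion oncogene on the C57BL/6 background, and the labels give the genotype as WT in both groups, so that no gene is deleted in one group alone. By their labels they are bone marrow leukemic stem cells, by the series text preleukemic and by the methods leukemic. The methods give a concentration of IOX5 for cell culture and a usual age of the mice, but do not tie them to these RNA samples. The length of treatment, any doxycycline given to these cells and the meaning of the replicate numbers, 1 to 4 in each group, are not given for them in the sources used here. Nothing states that the samples came from separate animals or cultures, so p-values measure only the spread between these samples, which may be technical.

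HIF is a transcription factor made of an oxygen-labile α subunit (HIF-1α from *Hif1a*, or HIF-2α from *Epas1*) and the stable partner HIF-β (from *Arnt*). In the presence of oxygen, PHDs hydroxylate prolines of the α subunit, the VHL ubiquitin ligase then binds it and it is degraded, whereas FIH hydroxylates an asparagine and hinders recruitment of the co-activators p300 and CBP. PHD inhibition acts on the protein, and *Egln1* and *Egln3* are known as target genes of HIF itself in many cell types.

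The upstream sequences of the PHD genes are shown because *Egln1* and *Egln3* are the genes among the 8 that were called with IOX5 in at least 1 of the edgeR fits, and *Egln2* is their close relative that was not. HIF binds the core motif ACGTG or GCGTG, and both were searched on both strands in the 250 bases before the RefSeq start site (GRCm38.p6). Capitals mark the matches, with the complement CACGC or CACGT where the match is on the other strand.
*Egln1*, chr8:124949255-124949504 (minus strand): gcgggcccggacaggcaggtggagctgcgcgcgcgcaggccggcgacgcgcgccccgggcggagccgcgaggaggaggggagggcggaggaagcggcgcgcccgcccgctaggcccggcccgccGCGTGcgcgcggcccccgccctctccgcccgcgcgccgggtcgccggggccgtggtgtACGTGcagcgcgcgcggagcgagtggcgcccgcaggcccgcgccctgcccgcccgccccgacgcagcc
*Egln2*, chr7:27166803-27167052 (minus strand): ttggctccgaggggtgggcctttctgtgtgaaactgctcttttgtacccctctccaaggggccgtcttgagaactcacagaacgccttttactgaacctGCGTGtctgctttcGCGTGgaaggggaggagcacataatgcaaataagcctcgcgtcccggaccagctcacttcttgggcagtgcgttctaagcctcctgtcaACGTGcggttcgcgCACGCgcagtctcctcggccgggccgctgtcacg
*Egln3*, chr12:54203875-54204124 (minus strand): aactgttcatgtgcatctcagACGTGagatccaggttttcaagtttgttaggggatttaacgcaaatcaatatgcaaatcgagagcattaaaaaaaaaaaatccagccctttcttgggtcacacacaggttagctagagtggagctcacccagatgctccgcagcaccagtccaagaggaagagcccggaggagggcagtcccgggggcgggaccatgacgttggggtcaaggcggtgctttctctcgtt

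*Egln1* held GCGTG at 126 and ACGTG at 68 bases before the start, counted to the first base of the match. *Egln2* held 3 GCGTG and 1 ACGTG in this window, and 1 GCGTG in the window of its other RefSeq start. *Egln3* held 1 ACGTG, at 229 bases before the start. Of the other genes, *Hif1a* had 3 matches to ACGTG, of which 2 share bases as CACGTG, *Arnt* had 1 match to GCGTG, and *Hif1an* and *Vhl* had 0. *Epas1* had no entry. A match to either motif was present in 6 of these 8 windows, in 38.6% of all 32851 RefSeq promoter windows of this length, and in 56% of those of tested genes, so that a match does not set the PHD genes apart. These letters are a description and not evidence of binding.

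Reads assigned to genes numbered 12343770 to 14116054 in a DMSO sample and 11351507 to 12708888 in an IOX5 sample. With this depth, 7 of the 8 genes had at least 3652 reads over all samples, whereas *Epas1* had 259. Markers of leukemic myeloid progenitors, including *Kit*, *Mpo*, *Hoxa9* and *Meis1*, were all above 1 CPM on average (10 of 10 genes), with a summed level of 2423 to 4691 CPM with DMSO and 2794 to 5370 CPM with IOX5. *Mpo* was the largest part of this sum, at 2195 CPM on average with DMSO and 2626 CPM with IOX5. Markers of B and T cells were at or below 0.178 CPM in sum in every sample. The summed level of 7 endothelial markers was 14.9 to 19.0 CPM with DMSO and 27.1 to 56.8 CPM with IOX5, of which *Vwf* made up most (9.57 and 31.3 CPM on average), while *Tek* and *Emcn* had 0 reads, and *Cdh5* and *Kdr* stayed below 1 CPM. The sum of 8 macrophage markers was 71.8 to 133.0 CPM with DMSO and 124.8 to 338.5 CPM with IOX5, mainly from *Adgre1*, *Cd68* and *Mrc1*. The sum of 5 megakaryocyte markers was 16.3 to 64.5 and 38.9 to 117.7 CPM, and that of 7 mast cell and basophil markers 126.0 to 498.8 and 251.7 to 802.5 CPM. Neutrophil markers had a sum over 7 genes of 2030 to 2587 CPM with DMSO and 2445 to 3362 CPM with IOX5. It came mainly from *Prtn3* and *Elane* (1149 and 562 CPM on average with DMSO). The others ran from *Camp* at 3.43 to *S100a8* at 286 CPM on average with DMSO. Erythroid markers summed to 4.74 to 23.0 and 8.44 to 32.4 CPM, and stromal markers to 2.19 to 5.15 and 1.72 to 5.13 CPM. The part of these markers in the results on the 8 genes was not tested, and in bulk RNA fewer cells of a type and less RNA per cell cannot be told apart.

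Expression of the 8 genes spanned more than 2 orders of magnitude per unit of length. CPM is the read count scaled to a common library size after TMM scaling, and for comparisons between genes it was divided by the summed exon length in kilobases. With DMSO, *Hif1a* was highest at 63.1 ± 11.2 CPM per kilobase (SD, n = 4), followed by *Egln3* at 54.7 ± 17.4. *Egln2* (21.0 ± 0.911) and *Egln1* (18.5 ± 2.91) came next, then *Vhl* (11.9 ± 0.671), *Hif1an* (11.5 ± 0.686) and *Arnt* (9.25 ± 0.581). *Epas1* was last at 0.373 ± 0.183 CPM per kilobase, at percentile 5.62 of tested genes, against percentile 93.6 for *Hif1a*.

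**Figure D1:**
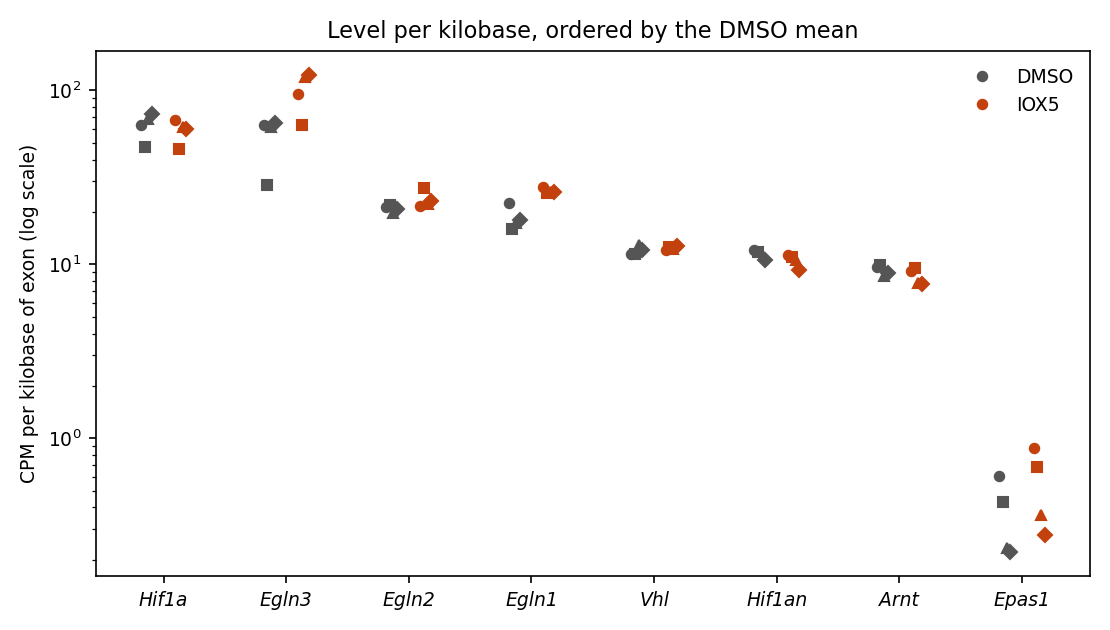
Level of the 8 genes in CPM per kilobase of exon (vertical, log scale) in the 4 DMSO samples (gray) and the 4 IOX5 samples (orange), with the genes ordered by their DMSO mean and the marker shape giving the replicate number (circle 1, square 2, triangle 3, diamond 4). *Hif1a* and *Egln3* lead with DMSO, *Egln3* moves above *Hif1a* in all 4 IOX5 samples, and *Epas1* lies below 1 CPM per kilobase throughout.

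Neighbors in this order were not all separated by their spread. The DMSO ranges overlapped for *Hif1a* and *Egln3*, for *Egln2* and *Egln1*, and for *Vhl* and *Hif1an*. Sample by sample, however, *Hif1a* was above *Egln3* in 4 of 4 DMSO samples and in 0 of 4 IOX5 samples. *Egln2* was above *Egln1* in 3 of 4 DMSO samples and in 1 of 4 IOX5 samples by summed exons, but in 4 of 4 samples of both groups when the longest transcript replaces the summed exons. With that length *Arnt* moves from the seventh to the fifth place (17.1 CPM per kilobase), whereas *Hif1a* is still above *Egln3* in 4 of 4 DMSO and 0 of 4 IOX5 samples. Of the summed transcript per kilobase of the α subunit genes *Hif1a* and *Epas1*, *Hif1a* made up 99.4% ± 0.349 (SD, n = 4) with DMSO and 99.1% ± 0.493 with IOX5. The α subunit gene *Hif3a* was not part of this sum.

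The genes of the HIF subunits did not pass the test. *Hif1a* (ENSMUSG00000021109; GRCm38 chromosome 12, 73901375 to 73947530, plus strand) was at 375.1, 279.1, 404.4 and 429.8 CPM in DMSO replicates 1 to 4 and at 401.4, 272.1, 365.1 and 353.9 CPM in IOX5 replicates 1 to 4. The groups overlapped, and replicate 2 was the lowest sample in both. On the log2 scale, IOX5 over DMSO was -0.10 (95% interval -0.44 to 0.25, adjusted p = 0.770 by edgeR), so a change of the *Hif1a* transcript beyond 0.736-fold or 1.19-fold lies outside the interval. Exons of *Hif1a* overlap the opposite-strand gene *Gm15283* over 330 bases and *Gm49321* on the same strand over 148 bases. These had 57 and 0 reads in all 8 samples, against 36274 for *Hif1a*.

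*Epas1* (ENSMUSG00000024140; chromosome 17, 86753700 to 86833410, plus strand) was at 3.39, 2.41, 1.30 and 1.24 CPM with DMSO and at 4.89, 3.82, 2.03 and 1.56 CPM with IOX5, from 16 to 61 reads per sample. Replicates 1 and 2 were above replicates 3 and 4 in both groups, and each IOX5 sample was above the DMSO sample of its number, although the groups overlapped. Its log2 fold change was 0.55 with a 95% interval of -0.47 to 1.57 (adjusted p = 0.532 by edgeR). In a fit with a block for the replicate number, the interval narrowed to 0.14 to 0.97 and the adjusted p was 0.0584 by edgeR, outside the threshold, while the counting interval of the ratio included 0 on the log2 scale in each of the 4 pairs. Without IOX5 replicate 1 the log2 fold change of *Epas1* was 0.24, and without DMSO replicate 1 it was 0.89. Macrophage markers were also higher in replicates 1 and 2 than in replicates 3 and 4 of each group, at 133.0, 110.6, 71.8 and 90.2 CPM in sum with DMSO and 181.7, 338.5, 153.5 and 124.8 CPM with IOX5. The sums of progenitor, megakaryocyte, and mast cell and basophil markers split the same samples the other way. Those of progenitors were 2636, 2423, 4691 and 4460 CPM with DMSO and 2910, 2794, 5370 and 5335 CPM with IOX5. *Mpo* was the largest part of the progenitor sum, at 984 to 3380 CPM with DMSO and 1141 to 3915 CPM with IOX5. Among the others, *Hoxa9* ran from 225 to 293 CPM with DMSO and *Cd34* from 23.2 to 153 CPM. The split of the sum therefore need not hold for each progenitor marker. How any of these marker sums relate to *Epas1* was not tested.

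*Arnt* (ENSMUSG00000015522; chromosome 3, 95434388 to 95497240, plus strand) was at 76.9, 79.0, 69.1 and 71.3 CPM with DMSO and at 72.9, 76.6, 62.5 and 61.4 CPM with IOX5. Each IOX5 sample was below the DMSO sample of its number, but the groups overlapped. *Arnt* had a log2 fold change of -0.12 (95% interval -0.32 to 0.083, adjusted p = 0.501 by edgeR).

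**Figure D2:**
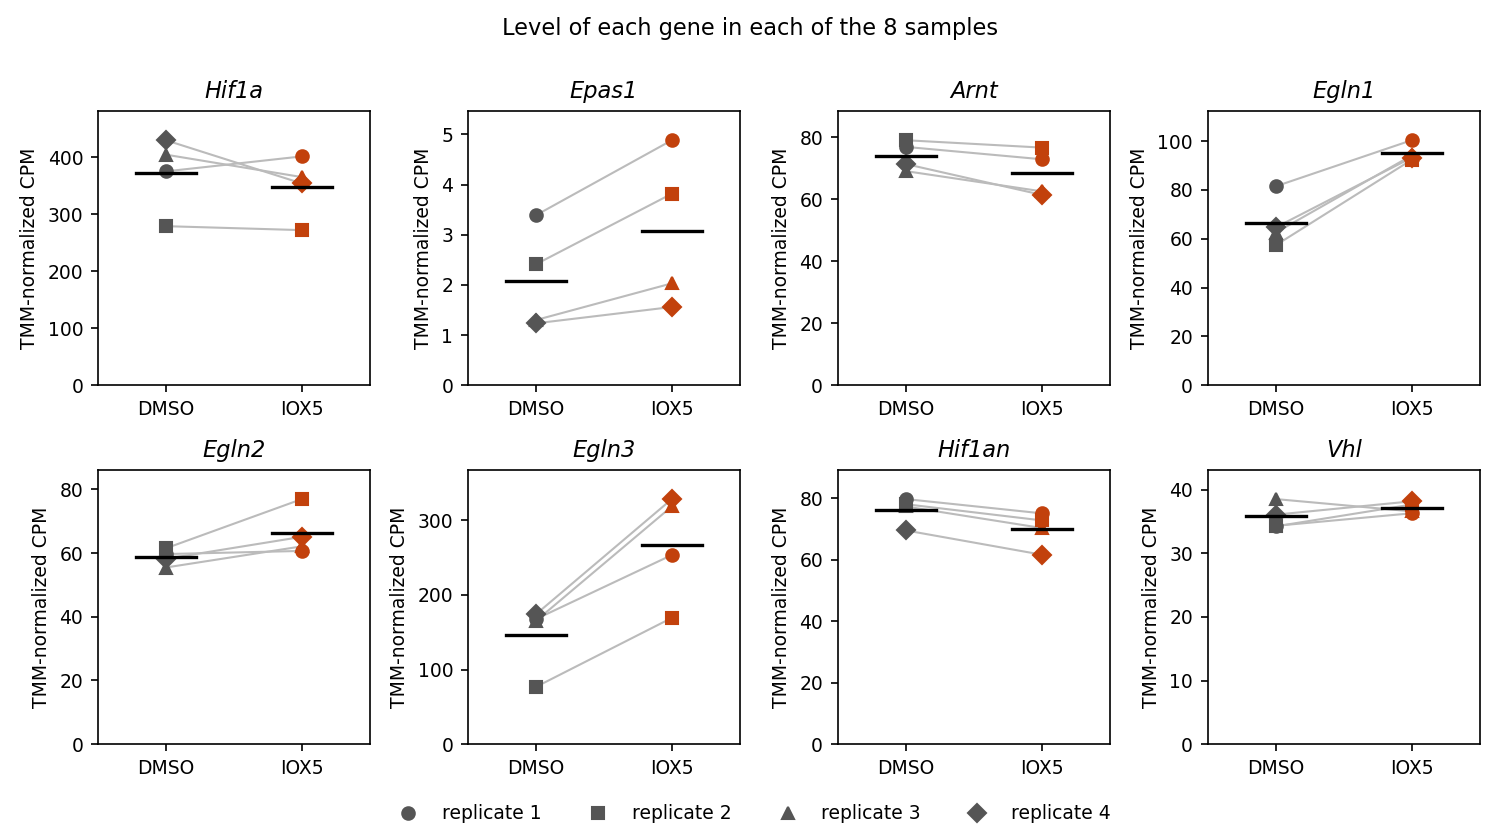
TMM-normalized CPM (vertical, from 0, own scale in each panel) of the 8 genes in the DMSO (gray) and IOX5 (orange) samples, with lines joining samples of the same replicate number, shapes giving the number and black bars the group means. *Egln1* is the one gene of the 8 whose groups do not overlap, *Egln3* is higher with IOX5 along each line, and *Epas1* keeps replicates 1 and 2 on top in both groups. How often the groups of a tested gene do not overlap is not given.

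Of the PHD genes, *Egln1* passed the test, *Egln3* passed it when the replicate number was a block, and *Egln2* passed it in neither fit. *Egln1* encodes PHD2, generally regarded as the main enzyme that sets HIF-α levels in normoxia (ENSMUSG00000031987; chromosome 8, 124908587 to 124949324, minus strand). It was at 81.5, 57.3, 62.5 and 64.6 CPM with DMSO and at 100.3, 92.4, 94.1 and 93.2 CPM with IOX5. All 4 IOX5 samples were above all 4 DMSO samples, replicate 1 was the highest in both groups, and the IOX5 samples lay closer together than the DMSO samples (SD 3.63 and 10.5 CPM). *Egln1* rose with a log2 fold change of 0.51 (SE 0.104, 95% interval 0.28 to 0.75, adjusted p = 0.0469 by edgeR) and was the single gene of the 8 called, 1 higher and 0 lower, where 0.774% of tested genes were called higher and 1.25% lower. This call was just inside the threshold of 0.05, and it was lost without any 1 of DMSO replicates 2, 3 and 4 or IOX5 replicates 1 to 4, when the log2 fold change was 0.45 to 0.53. Calls fell over all genes in most of these fits, to 0 in total when the omitted sample was replicate 3 or 4 of DMSO or replicate 3 of IOX5. In the block fit its log2 fold change was 0.52 (SE 0.0729, adjusted p = 0.000473 by edgeR).

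*Egln3* encodes PHD3, an inducible PHD (ENSMUSG00000035105; chromosome 12, 54178981 to 54203860, minus strand). It was at 167.4, 76.6, 164.9 and 173.8 CPM with DMSO and at 253.4, 169.2, 318.5 and 328.3 CPM with IOX5. Replicate 2 was the lowest sample in both groups, and its IOX5 sample lay within the DMSO range, so that the groups overlapped. The log2 fold change was 0.88 (SE 0.284, 95% interval 0.23 to 1.52) and did not pass the test, with an adjusted p of 0.136 by edgeR. With the block, *Egln3* was called higher (log2 fold change 0.90, SE 0.0809, adjusted p = 3.10e-05 by edgeR), as it was by DESeq2 without a block (adjusted p = 0.0175). The block fit called 2 of the 8 genes, *Egln1* and *Egln3*, higher and 0 lower, where 11.2% of tested genes were called higher and 9.43% lower. DESeq2 called the same 2 genes, where 3.94% of tested genes were called higher and 4.85% lower.

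*Egln2* encodes PHD1 (ENSMUSG00000058709; chromosome 7, 27158658 to 27166802, minus strand). It was at 59.7, 61.5, 55.5 and 58.2 CPM with DMSO and at 60.7, 77.0, 62.1 and 65.1 CPM with IOX5. The groups overlapped in IOX5 replicate 1, and IOX5 replicate 2 was the highest sample. The log2 fold change was 0.17 (95% interval -0.016 to 0.36, adjusted p = 0.286 by edgeR). An increase beyond 1.29-fold lies outside this interval, and without IOX5 replicate 2 the log2 fold change was 0.093. An annotated gene on the opposite strand, *Cyp2t4*, overlaps its exons over 11 bases and had 0 reads.

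*Hif1an* and *Vhl* did not pass the test, and their intervals were the narrowest of the 8. *Hif1an* encodes FIH (ENSMUSG00000036450; chromosome 19, 44562850 to 44576274, plus strand) and was at 79.8, 78.1, 77.3 and 69.6 CPM with DMSO and at 75.1, 72.8, 70.3 and 61.7 CPM with IOX5. Replicate 4 was the lowest in both groups, and each IOX5 sample was below the DMSO sample of its number, with overlap between the groups. The log2 fold change was -0.12 (95% interval -0.30 to 0.052, adjusted p = 0.416 by edgeR).

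*Vhl* encodes the substrate-binding subunit of the ubiquitin ligase (ENSMUSG00000033933; chromosome 6, 113623959 to 113631633, plus strand). It was at 34.3, 34.2, 38.5 and 36.1 CPM with DMSO and at 36.3, 37.7, 36.6 and 38.2 CPM with IOX5. The groups overlapped, with DMSO replicate 3 the highest sample of all. Its log2 fold change was 0.055 (95% interval -0.096 to 0.21, adjusted p = 0.689 by edgeR), so that changes below 0.935-fold or above 1.15-fold lie outside the interval.

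**Figure D3:**
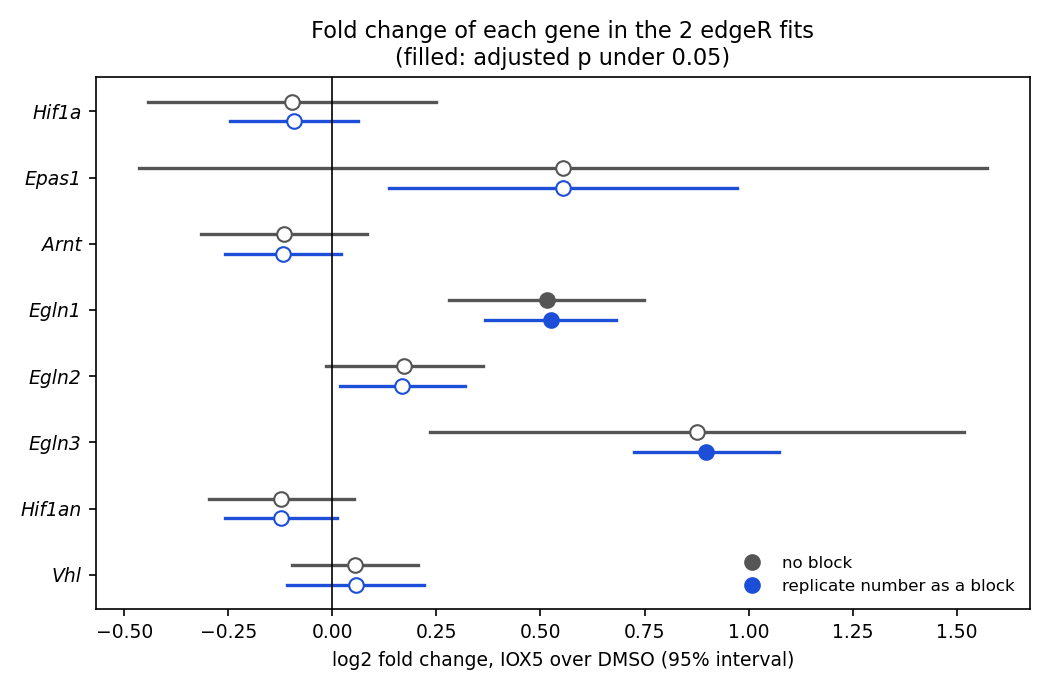
Log2 fold change of IOX5 over DMSO (horizontal) with its 95% interval for each of the 8 genes (vertical), from edgeR without a block (gray) and with a block for the replicate number (blue), and filled points where the adjusted p is under 0.05. The estimates differ little between the fits, the *Egln3* interval shrinks from 0.23 to 1.52 without the block to 0.72 to 1.07 with it, and the intervals of *Hif1a*, *Arnt*, *Hif1an* and *Vhl* include 0 in both.

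The effect of the block was on the error and not on the estimate. The SE without the block was 3.50 times that with it for *Egln3*, 2.32 times for *Epas1* and 2.14 times for *Hif1a*, the genes with the widest spread between replicate numbers. For *Vhl*, whose replicates of one number did not deviate together, it was 0.872 times. Within replicate numbers, the log2 ratio of IOX5 over DMSO for *Egln3* was 0.60, 1.14, 0.95 and 0.92 for numbers 1 to 4, or 1.51-fold to 2.21-fold. For *Egln1* it was 0.30, 0.69, 0.59 and 0.53. In both genes number 1 had the smallest ratio and number 2 the largest, as was also the case for *Egln2* (0.024, 0.32, 0.16 and 0.16). The lower bound of the counting interval was above 0 in all 4 pairs for *Egln1* and *Egln3*.

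For *Hif1a* the pairs went in both directions, with log2 ratios of 0.098, -0.036, -0.15 and -0.28, and the counting interval was above 0 for number 1 and below 0 for numbers 3 and 4. The spread between pairs of this highly counted gene was therefore larger than counting error. *Arnt* (-0.077, -0.044, -0.14 and -0.22) and *Hif1an* (-0.087, -0.10, -0.14 and -0.17) were lower with IOX5 in 4 of 4 pairs. With the block their 95% intervals still included 0, at -0.26 to 0.020 for *Arnt* and -0.26 to 0.011 for *Hif1an*. *Vhl* was higher in 3 of 4 pairs (0.081, 0.14, -0.074 and 0.082).

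**Figure D4:**
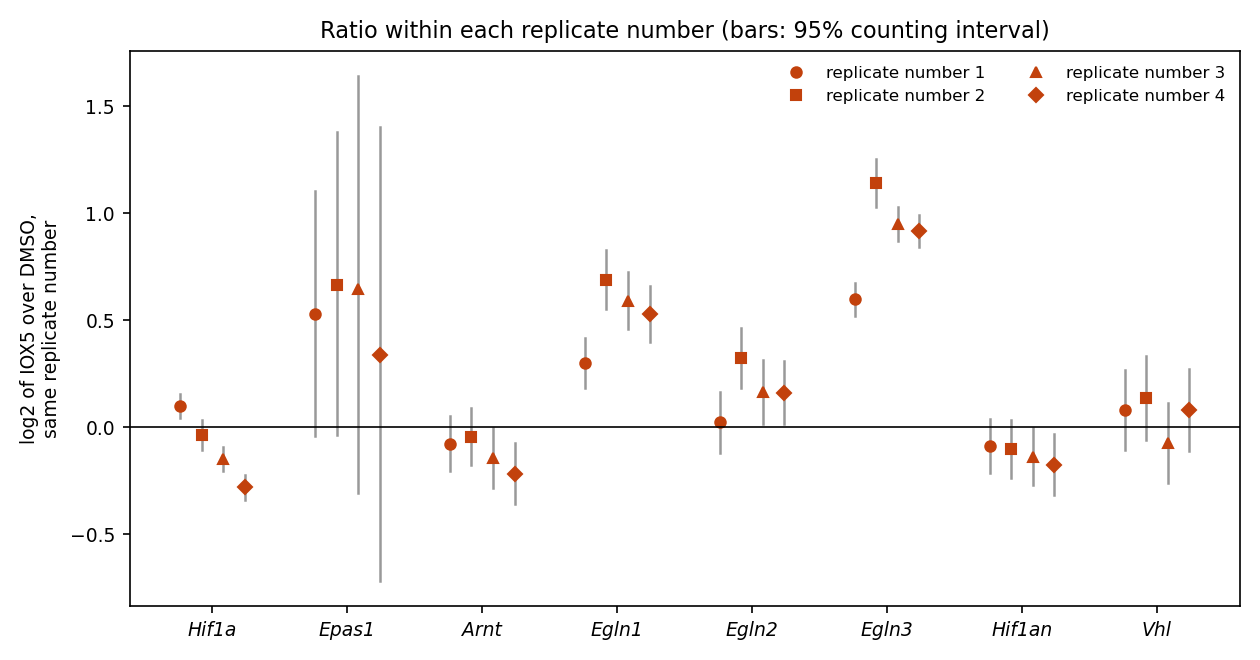
Log2 ratio of IOX5 over DMSO (vertical) within each replicate number for the 8 genes (horizontal), with shapes giving the number and bars the 95% interval from counting error alone. *Egln1* and *Egln3* lie above 0 in all 4 pairs with intervals that exclude 0, the pairs of *Hif1a* lie on both sides of 0, and the intervals of *Epas1* all include 0.

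The composition of PHD transcripts was compared next, on the scale of CPM per kilobase. The sum of the 3 PHD genes was 106.9, 66.7, 99.2 and 104.1 CPM per kilobase in DMSO replicates 1 to 4 and 144.8, 116.7, 168.0 and 172.5 in IOX5 replicates 1 to 4. All IOX5 samples were above all DMSO samples, with means of 94.2 ± 18.6 and 150.5 ± 25.6 (SD, n = 4 each). *Egln3* made up 56.8% ± 9.28 of this sum with DMSO and 65.7% ± 7.97 with IOX5. The share of *Egln2* was 23.2% ± 6.48 and 16.3% ± 4.89, and that of *Egln1* was 20.0% ± 3.18 and 18.0% ± 3.29. In DMSO replicate 2, where *Egln3* was lowest, *Egln3* made up 43.1% and *Egln2* 32.9% of the sum. By the longest transcript, *Egln3* made up 52.9% and 62.5%, and *Egln2* 28.6% and 20.5%, of the sum on average with DMSO and IOX5, and *Egln3* was above *Egln2* in 3 of 4 DMSO samples and 4 of 4 IOX5 samples.

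**Figure D5:**
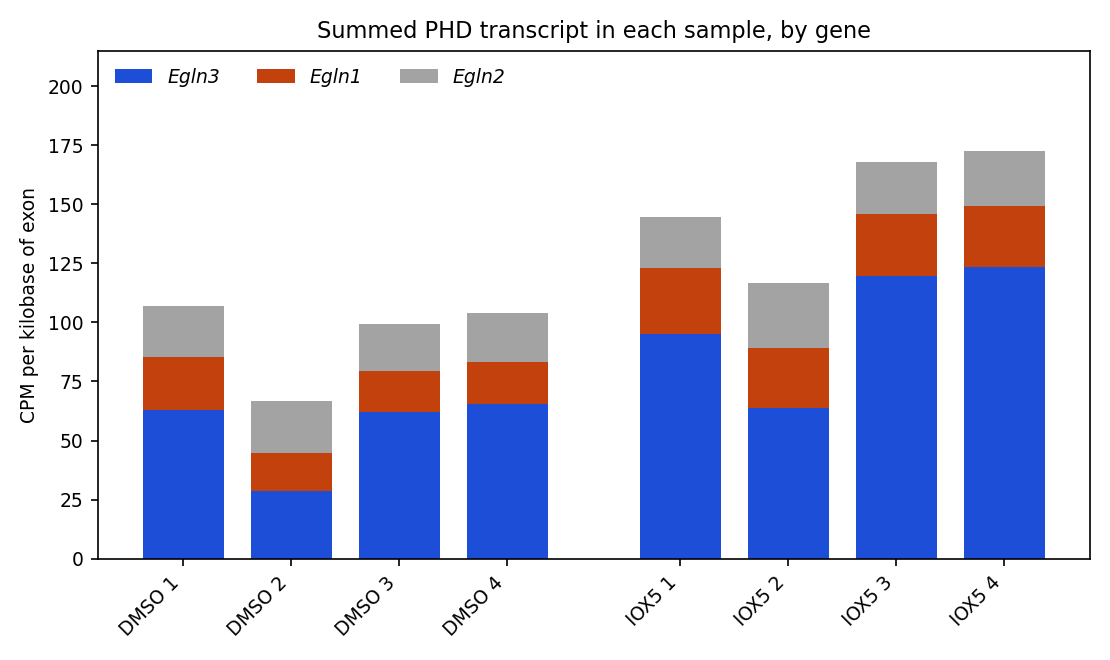
Stacked bars of the 3 PHD genes in CPM per kilobase of exon (vertical, from 0) in each of the 8 samples (horizontal), with *Egln3* in blue, *Egln1* in orange and *Egln2* in gray. *Egln3* is the largest part of each bar on this scale, the bars of the IOX5 samples reach 116.7 to 172.5 and those of the DMSO samples 66.7 to 106.9, and replicate 2 has the shortest bar in both groups.

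Whether the members of the pathway responded unequally was tested on 5 ratios between them. Each was compared by an exact two-sided permutation test over the 70 assignments of samples to groups, with a smallest possible p of 0.0286. The log2 ratio of *Egln1* to *Egln2* was 0.36 higher with IOX5 than with DMSO (exact permutation p = 0.0571, adjusted over the 5 ratios 0.286). For *Egln3* to *Egln2* the difference was 0.73 (exact permutation p = 0.114, adjusted 0.286), and for *Egln3* to *Egln1* it was 0.37 (exact permutation p = 0.314, adjusted 0.464). None of these passed the threshold in this test, which takes no account of the replicate numbers. After adjustment over the 5 ratios, a lone ratio at the smallest possible p could not pass either. These misses therefore do not show that the PHD genes responded equally. Replicate number 2 weighed on *Egln3* in both directions. Without DMSO replicate 2 the difference was 0.43 to *Egln2* and 0.16 to *Egln1*, and without IOX5 replicate 2 it was 1.01 and 0.57. Within replicate numbers the differences were of one sign and close together, at 0.28 to 0.43, 0.57 to 0.82 and 0.30 to 0.45, respectively, each higher in 4 of 4 pairs. The exact permutation of signs over 4 pairs gives p = 0.125 for each, the smallest p it allows, so that this paired test could not pass and says nothing on whether the PHD genes responded unequally. No other paired test of the ratios was run.

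The ratio of *Epas1* to *Hif1a* was 0.63 higher on the log2 scale (exact permutation p = 0.371, adjusted 0.464), from few *Epas1* reads, and ran from 0.35 without DMSO replicate 4 to 0.91 without IOX5 replicate 4. That of *Hif1a* to *Arnt*, the α and β subunits of HIF-1, differed by 0.028 (exact permutation p = 0.943, adjusted 0.943), was higher in 2 of 4 pairs, and turned negative without any 1 of DMSO replicate 2 or IOX5 replicates 1, 3 and 4, reaching -0.14 without the first.

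Genes whose products act on or with the 8 were examined as a list of 37 partner genes, which includes the VHL ligase subunits, co-activators, chaperones and HIF-related bHLH-PAS genes. Of the 32 tested, 0 were called by edgeR without the block, 7 (21.9%) had an unadjusted p under 0.05, against 20.2% of all tested genes, and the median log2 fold change was -0.025, against 0.017 over all tested genes. DESeq2 called 2 higher and 1 lower. With the block, 3 (9.38%) were called higher and 4 (12.5%) lower, close to the 11.2% and 9.43% of all tested genes, so that the list did not stand out and its called genes are given as single values. Those higher were *Higd1a*, which encodes a mitochondrial protein induced in hypoxia (36.2 ± 2.18 CPM with DMSO and 47.3 ± 6.70 with IOX5), *Os9*, which encodes a lectin of endoplasmic reticulum quality control (239.3 ± 17.5 and 274.9 ± 17.1), and the α subunit gene *Hif3a* (0.908 ± 0.629 and 1.75 ± 1.09, all SD, n = 4). The adjusted p with the block by edgeR was 0.00488, 0.0332 and 0.0329, respectively, and without the block it was 0.0918, 0.168 and 0.456. *Hif3a* had few reads, at 0.154 to 1.56 CPM with DMSO, and DESeq2 gave it no adjusted p.

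Those lower with the block were the co-activator gene *Crebbp*, the chaperone genes *Hsp90aa1* and *Hsp90ab1*, and *Siah1b*, a ubiquitin ligase gene. For *Hsp90aa1*, *Hsp90ab1* and *Siah1b* the groups overlapped, with log2 fold changes of -0.29, -0.26 and -0.39. Their edgeR adjusted p was 0.0170, 0.0355 and 0.0498 with the block and 0.197, 0.146 and 0.247 without it. *Crebbp*, which encodes CBP, was at 53.3 ± 2.52 CPM with DMSO and 39.2 ± 5.03 CPM with IOX5 (SD, n = 4 each), and all IOX5 samples were below all DMSO samples. Its log2 fold change was -0.44, with an adjusted p of 0.0517 without the block and 0.00292 with it by edgeR. The related *Ep300*, which encodes p300, was at 283.2 ± 19.8 and 263.5 ± 42.9 CPM (SD, n = 4 each), with overlap between the groups and an edgeR adjusted p of 0.657. Genes of the VHL ligase, *Elob*, *Eloc*, *Cul2* and *Rbx1*, were called by neither edgeR fit, and their log2 fold changes were between -0.10 and 0.097.

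A list of 42 HIF target genes other than the PHD genes was used as the reference for the response of the same samples. Of the 38 tested, 11 (28.9%) rose and 0 fell by edgeR, against 0.774% and 1.25% of all tested genes, 37 had a positive log2 fold change, and the median was 0.39. With the block 27 (71.1%) rose, against 11.2% of all tested genes, and by DESeq2 23 (60.5%), against 3.94%. Without any 1 of DMSO replicates 3 and 4 or IOX5 replicate 3, 0 of the list passed by edgeR without the block, as did 0 of all tested genes. In these fits 59% to 64.1% of the list had an unadjusted p under 0.05, against 14.7% to 16.8% of all tested genes. This list was written with results of these data known and is not independent evidence of its direction. The 4 with the smallest p were *Ankrd37*, *Pdk1*, *Kdm3a* and *Pgk1*, with log2 fold changes of 1.38, 0.67, 0.55 and 0.57. *Pdk1* encodes an inhibitor of pyruvate dehydrogenase, *Kdm3a* a histone demethylase and *Pgk1* a glycolytic enzyme. The log2 fold change of *Egln1* (0.51) was close to those of *Kdm3a* and *Pgk1*, whereas the median over the 8 genes was 0.11.

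The genes whose pattern over the samples was most like each of the 8 were sought by Pearson's r of the deviations from the group means of log2 CPM, over 8 samples that share replicate numbers and among 8925 genes of at least 10 CPM. *Egln3* was most like *Prickle3* (r = 0.994) and *Cuedc1* (r = 0.991). *Egln1* was most like *Irak1* (r = 0.985) and *Rhbdd2* (r = 0.957), and *Egln2* most like *Actb* (r = 0.991) and *Cndp2* (r = 0.989). For *Hif1a* they were *Nudcd3* (r = 0.996) and *Zdhhc20* (r = 0.993), for *Epas1* *Dis3l2* (r = 0.997) and *Nedd4* (r = 0.996), and for *Arnt* *Syne2* (r = 0.991) and *Ctnna1* (r = 0.990). For *Hif1an* they were *Rab11fip2* (r = 0.987) and *Map2k7* (r = 0.977), and for *Vhl*, which had the lowest values, *Rab11a* (r = 0.938) and *Trib3* (r = 0.933). These are the highest of 8925 values for each gene and describe which replicate numbers were high or low.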

How the data were processed

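Poly(A) RNA of 8 samples was made into directional libraries. Per the labels and the study's methods, the authors trimmed reads (cutadapt 1.18), mapped them to GRCm38 (HISAT2 2.2.1) and deposited 1 raw read count per Ensembl gene and sample (HTSeq 2.0.1), without normalization. The annotation release and strand setting of the counting are not given in the sources used here. Reads outside genes, on 5 summary lines (20.6% to 22.6% of a sample's total), were left out. Names and exon lengths came from GENCODE M21, matched for 54809 of 54838 genes.

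Groups were taken from the sample titles. The edgeR 4.0.16 quasi-likelihood test in R 4.3.3 compared IOX5 with DMSO, after filterByExpr (minimum count 10) and TMM scaling (factors 0.988 to 1.03), with Benjamini-Hochberg adjustment over 12405 genes and a call at an adjusted p under 0.05. A log2 CPM has a prior count of 2, and intervals are at 95%. Intervals of read ratios cover counting error only. Groups that do not overlap are a description, as the share of such genes among all tested genes is not given. Same-numbered samples deviated together from their group means (r = 0.758, 0.744, 0.732 and 0.636 for numbers 1 to 4), so a fit with the number as a block is given where it changed a call. Numbers 3 and 4 were also alike across numbers, with r = 0.685 for DMSO 4 with IOX5 3 and 0.617 for DMSO 3 with IOX5 4. These values do not tell number 3 from number 4. The alternatives were this block, DESeq2 1.42.0, other scaling, filters and depth, and each sample left out. The edgeR and DESeq2 fits, without and with the block, were tested on simulated data. The spread of the simulated data was set in advance and not estimated from these samples. The 8 genes, the partner, target and marker lists and the tests were chosen with earlier results of these data known. Other genes named are partner genes called in either edgeR fit, the 4 target genes with the smallest p, the 2 genes most like each of the 8, and genes with overlapping exons; *Ep300*, the VHL ligase genes and the marker genes were named after their values were seen.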

Additional observations from a re-analysis of the deposited data

Results flagged for a closer look

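In 3 of 26 groups of 4 values examined for the 8 genes and their ratios, 1 sample lay far from the others by Dixon's criterion, where chance gives about 1 in 20. *Egln3* was at 76.6 CPM in DMSO replicate 2, below 164.9 to 173.8 CPM in the other DMSO samples, and without this sample its log2 fold change was 0.66 in place of 0.88. Without IOX5 replicate 2 it was 1.04, and without number 2 in both groups it was 0.82 in the block fit. The log2 ratio of *Egln3* to *Egln2* was 0.39 in DMSO replicate 2, against 1.56 to 1.65 in the other DMSO samples. The log2 ratio of *Hif1a* to *Arnt* was 2.27 in IOX5 replicate 2, against 2.90 to 2.99 in the other IOX5 samples. All 3 values are from replicate number 2, in which *Egln3* and *Hif1a* were lowest in both groups. The cause was not tested.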

How the results depend on the processing

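With the replicate number as a block, 2 of the 8 genes were called higher in place of 1, because *Egln3* passed the threshold (log2 fold change 0.90 with the block, 0.89 by DESeq2 and 0.91 by DESeq2 with the block). The block moved the calls among partner genes from 0 to 7 and among HIF targets from 11 to 27, and it changed no other call among the 8 genes, while the paired test of the ratios could not pass the threshold. DESeq2 called 2 of the 8 genes, 3 partner genes and 23 targets, and with the block 2, 5 and 26. Calls moved over all 12405 tested genes as well. The edgeR fit called 96 higher and 155 lower without the block, and 1394 and 1170 with it. For DESeq2 these were 489 and 602 without the block, and 952 and 787 with it. DESeq2 without the block gave no adjusted p for *Epas1*. With library totals alone or with libraries thinned to the smallest total, 0 of the 8 genes were called, and *Egln1* kept its log2 fold change (0.53 and 0.51, adjusted p = 0.0528 and 0.0509 by edgeR). Over all tested genes these fits called 87 and 95 higher and 111 and 150 lower, respectively. RLE or upper-quartile factors and both other filters on low counts changed no call among the 8. Leaving out samples one at a time, or 1 replicate number with the block, gave log2 fold changes of 0.45 to 0.63 for *Egln1*, 0.66 to 1.04 for *Egln3*, 0.24 to 0.89 for *Epas1*, 0.093 to 0.21 for *Egln2* and -0.21 to 0.0057 for *Hif1a*. The positive value for *Hif1a* arose without IOX5 replicate 2. The differences in log2 ratio ran from 0.16 to 0.57 for *Egln3* to *Egln1*, 0.43 to 1.01 for *Egln3* to *Egln2* and 0.35 to 0.91 for *Epas1* to *Hif1a*. The *Hif1a* to *Arnt* difference ran from -0.14 to 0.20, with -0.012, -0.040 and -0.034 without IOX5 replicates 1, 3 and 4. Over the same fits, 0 to 2 of the 8 genes, 0 to 7 partner genes and 0 to 27 targets were called. Among all tested genes, 0 to 1355 were called higher and 0 to 1058 lower. The cause of these shifts was not tested. *Epas1* had the fewest reads, 16 to 61 per sample, and the SE of its fold change without the block was 2.32 times that with it.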
